A study of Drosophila melanogaster with 6 samples.

Results

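The intervals described here were listed for the transcription factor Drgx and lie well inside very long genes of Drosophila melanogaster. They are the deposited intervals on 6 chromosome arms (X, 2L, 2R, 3L, 3R and 4) whose midpoint is more than 500 bp from every protein-coding gene end and falls inside a protein-coding gene body, where the longest gene containing the midpoint exceeds 30 kb. In this way 803 of the 2394 intervals on these 6 arms were selected (33.5%, Wilson 95% interval 31.7% to 35.5%), out of 2396 intervals in the whole list. The selection used positions only, so score and width played no part in it. The 803 intervals are called members below, and the gene that contains a member is its host.

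The intervals come from Targeted DamID, in which the bacterial methylase Dam is joined to a DNA-binding protein and marks adenines of nearby GATC motifs, with unfused Dam as control. The list belongs to a design of 3 Dam-Drgx samples (transgene UAS-Dam-DRGX) and 3 Dam-only samples (transgene UAS-Dam), and it was assumed to give Dam-Drgx relative to Dam-only. Both groups carried R23G12-Gal4 opposite the Dam transgene and, on another chromosome, the membrane reporter UAS-CD8-GFP opposite tubGal80ts, a temperature-sensitive repressor of Gal4, and both were raised at 18 °C and moved to 29 °C for 24 h as larvae of the third instar. Whole brains were dissected, so the labelled cell type, T4/T5 neurons, is set by the driver alone and could not be checked against marker genes in a list of positions. One list covers all samples: no value per sample, no library depth and no replicate spread was analysed, and every error below covers counting of intervals or genes only. Intervals of one list are not replicates, so differences between classes are given with these counting errors and were not tested.

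Drgx is a Paired-like homeodomain protein, a transcription factor of a family that recognises sites with a TAAT core. T4 and T5 neurons compute the direction of visual motion in the fly optic lobe, and at the wandering larval stage they are still being born and wiring their axons. Very long genes of the fly are mostly long because of their introns, and many of them encode transcription factors, surface proteins, RNA-binding proteins and channels of the nervous system. Introns of such genes often hold enhancers, which is why the position of an interval far from gene ends is of interest. The gene table used has gene starts and ends but neither strand nor exons. Whether members fall in introns, exons or UTRs, and which end of a host is the promoter end, was therefore not analysed here. No DNA sequence was used.

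Genes over 30 kb were dense in Drgx intervals relative to shorter genes. The bodies of the 663 protein-coding genes over 30 kb on the 6 arms, which are 4.76% of 13922 protein-coding genes, offered 40.8 Mb of positions at which a midpoint would count as a member. The members amounted to 19.7 per Mb of this territory (exact Poisson 95% interval 18.4 to 21.1). Bodies of genes up to 30 kb carried 477 intervals on 34.8 Mb, or 13.7 per Mb (12.5 to 14.99). The zones within 500 bp of gene ends carried 11.9 per Mb (10.5 to 13.5), and intergenic DNA carried 22.8 per Mb (21.3 to 24.5). Long gene bodies thus stood above shorter ones and gene ends and below intergenic DNA, with intervals that did not overlap. Without the 10 genes over 200 kb, long genes carried 22.3 per Mb (20.7 to 23.9), and the interval then overlapped that of intergenic DNA. Limiting territory to the span of the list, given below, kept them apart. Intervals with midpoints only in genes not annotated as protein-coding reached 26.1 per Mb (20.4 to 32.8), a range that overlapped that of long genes. They held 62.7% of the 1280 intervals inside protein-coding gene bodies (Wilson 95% interval 60.1% to 65.3%).

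The order of long above shorter gene bodies was seen on each of the 6 arms. On 2L there were 20.2 members per Mb in long genes, against 12.1 intervals per Mb in shorter genes. On 2R the values were 22.3 in long and 13.4 in shorter genes, and on 3L they were 18.1 in long and 12.9 in shorter genes. On X they were 19.4 in long and 13.2 in shorter genes. On 3R they were nearer, 19.1 (16.6 to 21.9) in long and 16.6 (13.98 to 19.7) in shorter genes, with overlapping intervals. On 4 they rested on 6 members and 6 other intervals, 21.6 (7.94 to 47.1) in long and 9.16 (3.36 to 19.9) in shorter genes. Against intergenic DNA the order varied by arm: long genes were lower on 2L, 3L and 3R, and higher on 2R, 4 and X. The intervals of the 2 classes were apart on 3L and 3R and overlapped on the other 4 arms, and chromosome 4 had 1 intergenic interval. On 3R the intergenic density was 29.0 per Mb, and on X it was 17.0 per Mb.

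**Figure D1:**
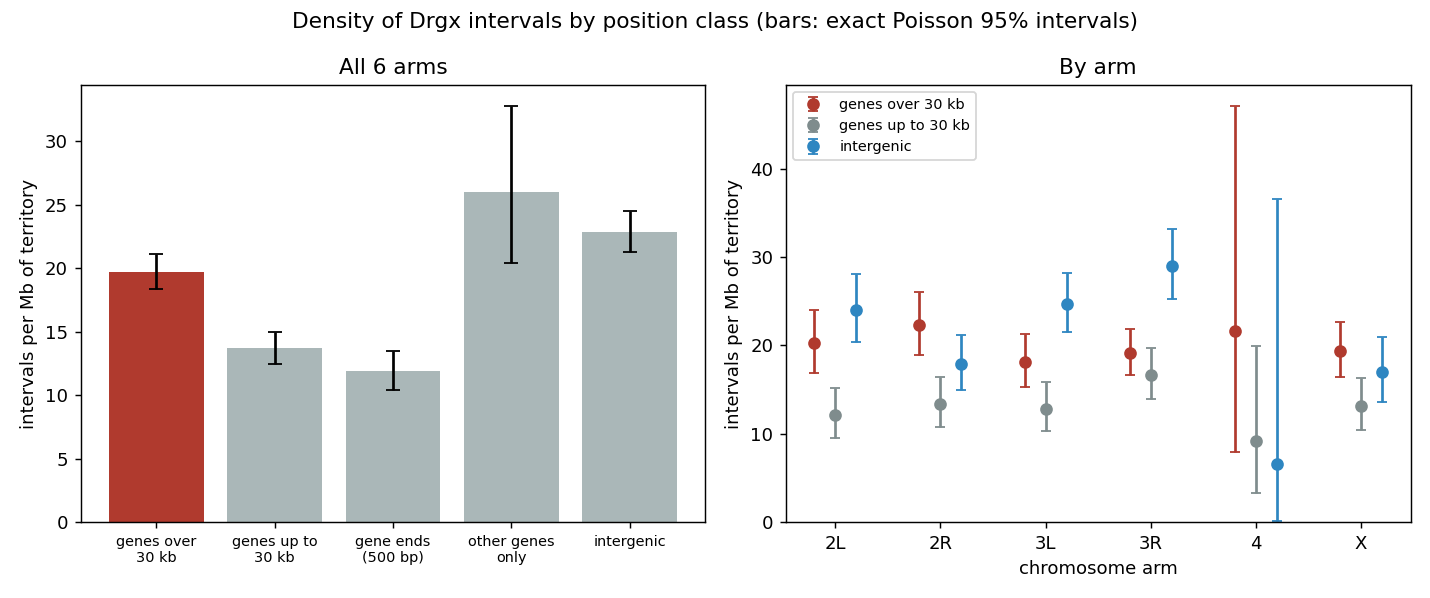
Intervals per Mb of territory by position class over all 6 arms (left, bars) and by arm for genes over 30 kb, genes up to 30 kb and intergenic DNA (right, points), with exact Poisson 95% intervals that cover counting only. Long gene bodies carried 19.7 per Mb, against 13.7 per Mb in shorter gene bodies, and their value varied between 18.1 and 22.3 per Mb over the arms.

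The limit of 30 kb did not mark a step. Among protein-coding genes up to 5 kb long the density was 4.45 intervals per Mb (3.13 to 6.13), and it was 8.21 from 5 to 10 kb and 17.2 (14.9 to 19.8) from 10 to 20 kb. Genes of 20 to 30 kb already carried 24.5 per Mb (21.1 to 28.4). Genes of 30 to 50 kb carried 24.2 members per Mb (21.5 to 27.0), those of 50 to 100 kb 22.1 (19.7 to 24.6) and those of 100 to 200 kb 19.9 (17.0 to 23.1). Density therefore climbed with gene length up to about 20 kb and was level or slightly lower beyond. Just inside the limit, the 28 members in hosts of up to 32 kb had a median score of 3.07. Just outside it, the 49 intervals in genes of 28 to 30 kb had a median score of 3.12. The gene Drgx itself (CG34340, 2L, 3662745 to 3692114), with 3 intervals in its body, is 29.4 kb long and so hosts no member.

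Distance from gene ends was then held alike in both kinds of gene. At 500 to 1000 bp from the nearest protein-coding gene end, long genes carried 16.9 members per Mb (11.02 to 24.7), against 7.71 intervals per Mb (5.92 to 9.86) in shorter genes. At 1 to 2 kb the values were 20.6 (15.4 to 27.0) in long and 10.8 (8.77 to 13.2) in shorter genes, and at 2 to 5 kb they were 21.4 (17.9 to 25.4) in long and 13.7 (11.6 to 16.1) in shorter genes. From 5 to 10 kb the order was not kept, with 20.8 (17.7 to 24.2) in long and 23.9 (20.1 to 28.3) in shorter genes. From 10 to 20 kb there were 23.02 (20.2 to 26.1) in long genes and 30.8 (20.8 to 44.0) in the few shorter genes that reach so far. The surplus of long over shorter gene bodies was thus seen within 5 kb of gene ends, and from 5 kb inward the intervals of both overlapped.

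The members spread over many hosts. Of the 663 protein-coding genes over 30 kb, 382 hosted at least 1 member, which is 57.6% of them (Wilson 95% interval 53.8% to 61.3%). There were 154 hosts with 1 member, 125 with 2, 58 with 3 and 22 with 4. Another 14 hosts had 5 members, 6 had 6, and single genes had 7, 10 and 14. Hosts with 2 or more members numbered 228, or 34.4% of genes over 30 kb, and together they held 649 members (80.8%). The 23 hosts with 5 or more held 137 members, or 17.1%, so most members lay outside the most occupied genes.

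Of the 281 long genes without a member, 30 were still overlapped by an interval that the rule placed elsewhere, which leaves 251 with none. Counting any overlap, 412 genes over 30 kb (62.1%) met an interval. A few bodies coincide in the table: 8 genes over 30 kb share both ends with another gene, and the 5 members in them were given to one of the genes that share the body. Of all members, 776 lay in a single protein-coding gene, 26 in 2 and 1 in 3 nested or overlapping genes.

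Longer genes hosted members more often up to about 50 kb and then at a steady share. In genes of 30 to 40 kb, 86 of 202 hosted a member (42.6%, 36.0% to 49.5%), and in those of 40 to 50 kb 92 of 154 did (59.7%, 51.8% to 67.2%). The share was 67.1% of 155 genes from 50 to 75 kb, 68.1% of 69 genes from 75 to 100 kb and 68.5% of 73 genes from 100 to 200 kb. The mean number of members per gene went on growing over these classes, through 0.688, 1.06, 1.27, 1.70 and 2.38. Over all 663 genes the number of members and gene length had a Spearman's rho of 0.29, given as a description across genes that share the same libraries.

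The 10 genes over 200 kb departed from this. Only 3 of them hosted members, 12 in all, with a density of 2.30 per Mb (1.19 to 4.01). The hosts were kirre (394 kb, X), with 2 members, Ten-a (292 kb, X), with 5, and bru3 (281 kb, 3L), with 5, of which kirre and Ten-a were named after their values were seen. kirre and Ten-a encode cell-surface proteins, an immunoglobulin-domain protein and a teneurin, and bru3 encodes an RNA-binding protein of the Bruno family. The 5 longest genes without a member were Myo81F (1966 kb, 3R), Pzl (709 kb, 3R), lovit (434 kb, 3L), CG17684 (396 kb, 2R) and DIP-lambda (379 kb, 2R). Of the 7 genes over 200 kb without a member, 5 lay wholly beyond the outermost interval of their arm, where the list holds nothing. When territory was counted only within the span of the list on each arm, long genes carried 21.9 members per Mb (20.4 to 23.5), against 13.9 (12.7 to 15.2) in shorter genes and 26.3 (24.5 to 28.1) in intergenic DNA.

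**Figure D2:**
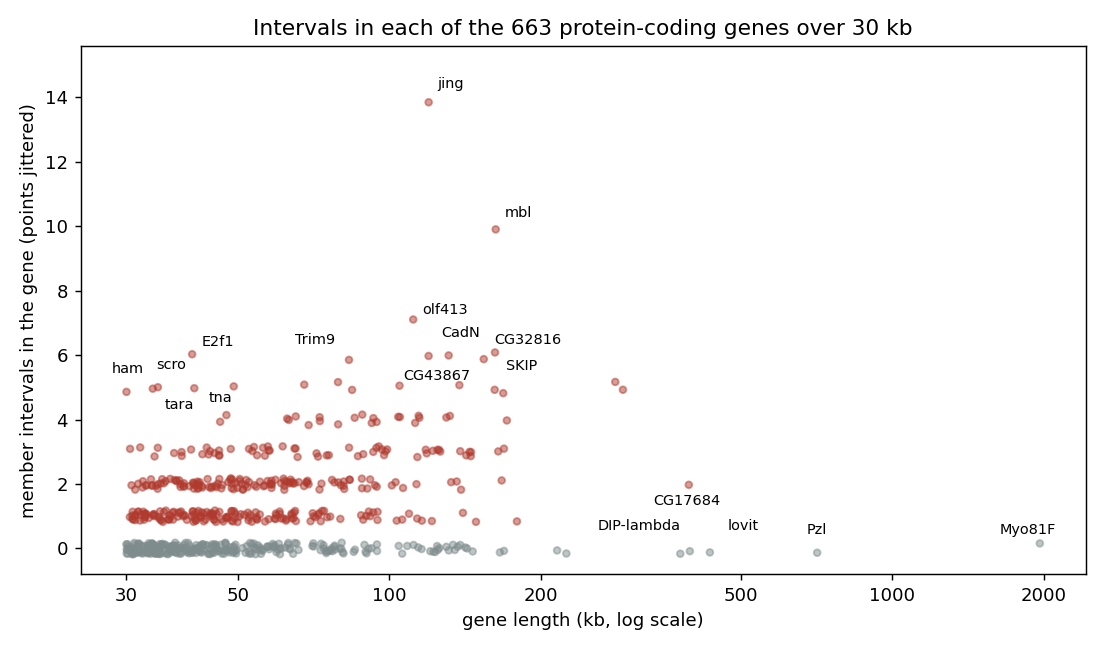
Number of member intervals (vertical axis, points jittered) against gene length in kb (log scale) for each of the 663 protein-coding genes over 30 kb, red for hosts and grey for genes without a member. jing with 14 and mbl with 10 stand above the rest, and the 5 longest genes without a member lie at the lower right.

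The host with most members was jing (CG9397), a zinc-finger transcription factor gene of 120 kb on 2R (6502006 to 6621792), with 14. Their scores ran from 1.61 to 4.49 with a median of 3.39, and they covered 17.9% of the gene. The highest stood at 6584692 to 6586359. Members were met along most of the gene, from 11.4 kb to 119.2 kb from its lower-coordinate end, and 9 of the 14 lay past its middle.

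mbl (CG33197), the muscleblind gene of alternative splicing, is 163 kb long on 2R (17216549 to 17379376) and hosted 10 members, with scores from 2.04 to 4.12. All 10 lay between 33.6 and 133.2 kb from the lower-coordinate end, so both flanks of the gene were free. olf413 (CG12673, 112 kb, 3L) had 7 members. Of these, 6 scored between 1.83 and 2.86 and a single narrow one of 553 bp, at 22209430 to 22209982, scored 5.48.

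The 6 hosts with 6 members each were E2f1, Trim9, CG43867, CadN, CG32816 and SKIP. E2f1 (CG6376, 3R, 21620304 to 21660871), whose product drives entry into S phase, is the shortest of them at 40.6 kb. Its members lay in one run between 9.2 and 24.4 kb from the lower end with scores from 3.13 to 4.51, the highest minimum among these 6 hosts. Trim9, a ubiquitin ligase gene of 83.2 kb, had scores from 1.68 to 4.58. CadN, which encodes N-cadherin, an adhesion molecule of axons and synaptic layers, is 131 kb long, and all 6 of its members lay beyond 85 kb from its lower end, with scores from 1.97 to 4.72. In CG32816 (154 kb, X) 4 of the 6 members crowded between 139821 and 143539 bp from the lower end, with scores from 3.51 to 3.98. In SKIP (162 kb, 3R), a gene of a partner of the Shal potassium channel, the members were spread from 19.5 to 154.9 kb and one was 8407 bp wide.

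Among hosts with 3 or more members, the 5 with most members per 10 kb were short ones, none longer than 41.0 kb. A count divided by length favours short genes once a minimum count is set, and jing at 120 kb had 1.17 per 10 kb. ham (CG31753, 2L), a PRDM-class zinc-finger gene of neuronal lineages, is 30.03 kb long and the shortest host of all, and it had 5 members, or 1.66 per 10 kb. E2f1 followed with 1.48 members per 10 kb and scro with 1.48. tara, a gene of cell-cycle regulation and sleep, had 1.44 and tna, which encodes an SP-RING protein, had 1.22. In tna the 5 members covered 33.3% of the gene, with scores from 3.25 to 5.18. ham, scro and tna also hosted 3 of the 10 highest-scoring members.

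**Figure D3:**
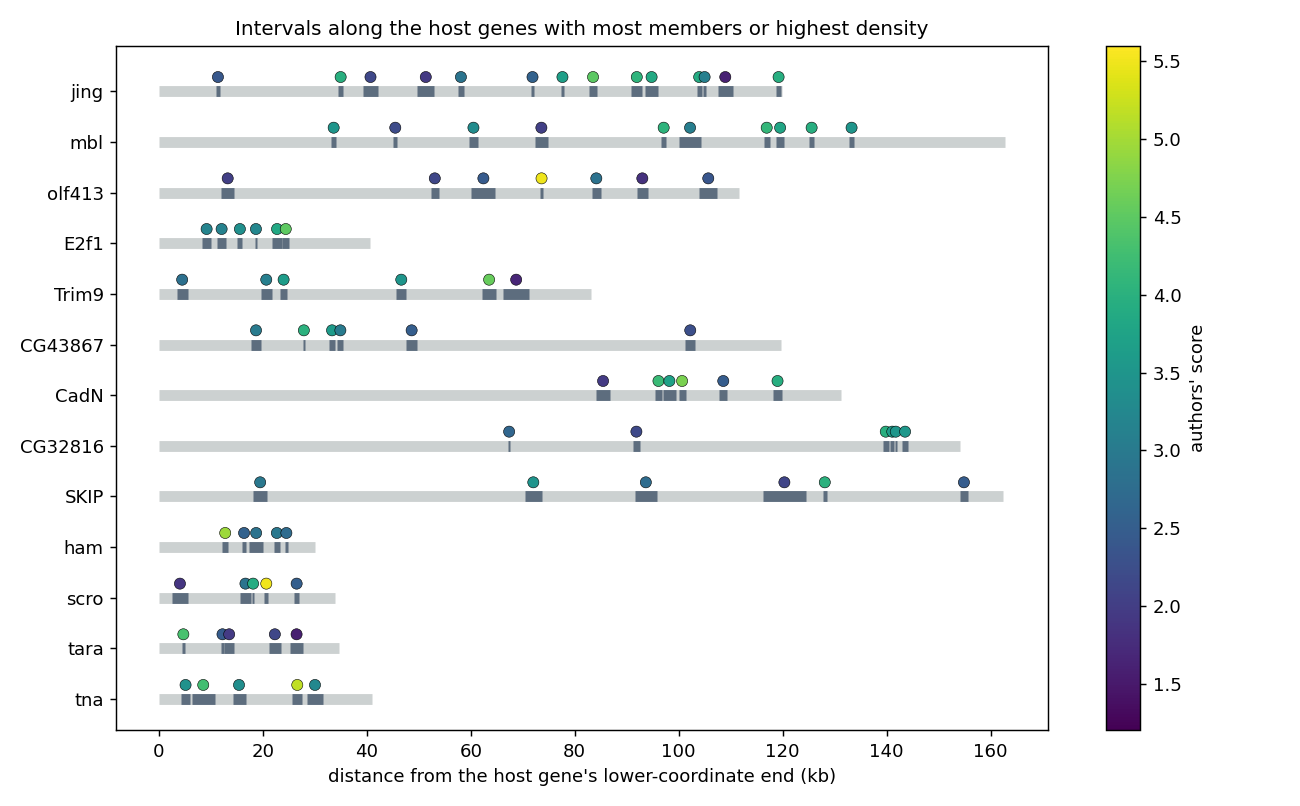
Members along the 13 hosts with most members or most members per 10 kb: grey bars are gene bodies in kb from the lower-coordinate end, dark blocks are members at their true width, and circles above them carry the authors' score by colour. E2f1, ham and CadN show runs in one stretch of the gene, while jing and SKIP are occupied along most of their length.

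The score deposited with each interval is a positive number whose scale is not stated, used here only to describe and rank. Members scored from 1.24 to 5.50 with a median of 2.83 (95% interval of the median 2.73 to 2.90). Intervals in shorter genes had a median of 2.86 (2.76 to 2.98), those at gene ends 2.75 (2.60 to 2.92) and intergenic ones 2.86 (2.76 to 2.94). All of these intervals overlapped. Members were 33 of the 100 highest-scoring intervals of the list, close to their share of all intervals, and 2 of the top 10. A score over 4 was reached by 113 members (14.1%, 11.8% to 16.6%). The false discovery rate deposited for members ran from 9.31e-35 to 0.00883 with a median of 0.000267.

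The highest-scoring member, 5.50, lay in scro (CG17594) on 3L at 24744424 to 24745250, 13.2 kb from the nearest gene end, and ranked at position 7 in the list. scro encodes an NK2-class homeodomain protein. The next was the narrow interval in olf413 described above. Ptp61F, a tyrosine phosphatase gene (3L, 1360142 to 1360668), and tna (3L, 10861212 to 10863112) each had a member with a score of 5.18. brat, a translational repressor that restrains neural stem cells, had one of 5.14 on 2L at 19154579 to 19155214, close to the middle of the gene. These were followed by smal, a gene related to discoidin domain receptors, on 2L at 6203505 to 6205613 (5.02), fra on 2R at 12554835 to 12555413 (4.98) and ham on 2L at 18775124 to 18776168 (4.96). fra encodes the netrin receptor Frazzled. Eip75B, an ecdysone-induced nuclear receptor gene, had one of 4.89 on 3L at 17992042 to 17993492, and eIF5B, a translation initiation factor gene, had one of 4.89 on 3L at 3439590 to 3440054. All 10 of these members lay between 6.6 and 41.8 kb from the nearest protein-coding gene end.

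Scores varied within hosts nearly as much as over all members of these hosts. In the 228 hosts with 2 or more members, the standard deviation of the score within hosts was 0.847, against 0.856 over all 649 of these members. The gap between the highest and the lowest member of a host had a median of 1.17 and reached 3.65. Score had a rank correlation near 0 with host length (Spearman's rho -0.03), with distance from gene ends (0.02) and with relative position (0.00), each over 803 members that share libraries and, in part, hosts. It was -0.15 with the distance to the nearest other interval and -0.48 with the deposited false discovery rate. With width it was also -0.48, and in the other classes it lay between -0.32 and -0.47. The 202 narrowest members, of 194 to 1134 bp, had a median score of 3.53 (3.43 to 3.64), and the 200 widest, of 2578 to 12492 bp, one of 2.28 (2.17 to 2.38).

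Members were wide. Their median width was 1842 bp (1732 to 1897), against 1528 bp (1445 to 1620) in shorter genes, 1259 bp (1124 to 1372) at gene ends and 1618 bp (1550 to 1687) in intergenic DNA. At like scores the medians of members were also the highest of the 3 classes, with counting intervals that mostly overlapped. Among intervals with a score up to 2.31 the median width was 2618 bp (2400 to 2759) for 206 members, against 2112 bp (1897 to 2210) in shorter genes and 2221 bp (1909 to 2562) in intergenic DNA. From 3.62 upward it was 1226 bp (1068 to 1355) for 187 members, against 1101 bp (957 to 1260) in shorter genes and 1000 bp (909 to 1089) in intergenic DNA. Between 2.31 and 2.83 it was 1982 bp for members, 1838 bp in shorter genes and 1915 bp in intergenic DNA. The widest member of all, 12492 bp in rg on X (5095632 to 5108123), named after its values were seen, also had the lowest score, 1.24. In total members covered 1.62 Mb, or 39.8 bp per kb of their territory, against 23.6 bp per kb in shorter genes and 41.6 bp per kb in intergenic DNA.

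Most members lay more than 5 kb from every gene end, and so did most of their territory. Member midpoints had a median distance of 10804 bp (9941 to 11976) to any protein-coding gene end. The quartiles were 4728 and 18902 bp, the smallest distance was 519 bp and the largest 137561 bp. More than 5 kb from every gene end lay 593 members (73.8%), more than 10 kb 426 (53.1%) and more than 20 kb 184 (22.9%, 20.1% to 25.9%). Members were not denser at the greatest distances. Beyond 20 kb there were 15.4 per Mb (13.2 to 17.8), below the 23.02 (20.2 to 26.1) at 10 to 20 kb. The value beyond 20 kb includes the genes over 200 kb, most of which hosted no member. Only 6 members lay within 600 bp of a gene end, just inside the rule. In 13 members the interval itself reached past an end of the host although its midpoint did not.

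The 5 members farthest from any gene end were 3 in bru3 and 1 each in hth and Sema1a. The bru3 members, at 137561, 126418 and 83194 bp from a gene end, had scores of 2.09, 4.10 and 2.30. hth encodes Homothorax, a homeodomain partner of Hox proteins, and its member on 3R at 10570958 to 10571705, 63770 bp from the nearest end, had a score of 4.78. Sema1a encodes a transmembrane semaphorin used in axon guidance. Its member on 2L at 8604708 to 8605590, 63002 bp from the nearest end, had a score of 3.30.

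Relative to host length, members were denser towards the middle of the gene. The median midpoint lay 28.2% of the host's length from the nearer host end (26.3% to 30.3%). In the outermost part, up to 10% of the length from an end, there were 126 members on 7.71 Mb, or 16.3 per Mb (13.6 to 19.5). The following parts had 16.9 (14.2 to 19.9), 19.5 (16.6 to 22.7), 22.7 (19.5 to 26.1) and 23.03 per Mb (19.9 to 26.6) at 40% to 50%. In genes of 30 to 50 kb the density was 15.44 per Mb (10.8 to 21.5) in the outermost part and 27.6 per Mb (21.5 to 34.9) in the innermost. In genes of 50 to 100 kb it was 19.3 (14.4 to 25.3) in the outermost and 27.1 per Mb (21.4 to 33.8) in the innermost part, with overlapping intervals. In genes of 100 to 200 kb no such gradient was resolved, with 21.1 (14.7 to 29.2) in the outermost and 22.2 per Mb (15.8 to 30.3) in the innermost part. Density of GATC sites and Dam-only signal along genes were not analysed here, and their part in the gradient was not tested.

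**Figure D4:**
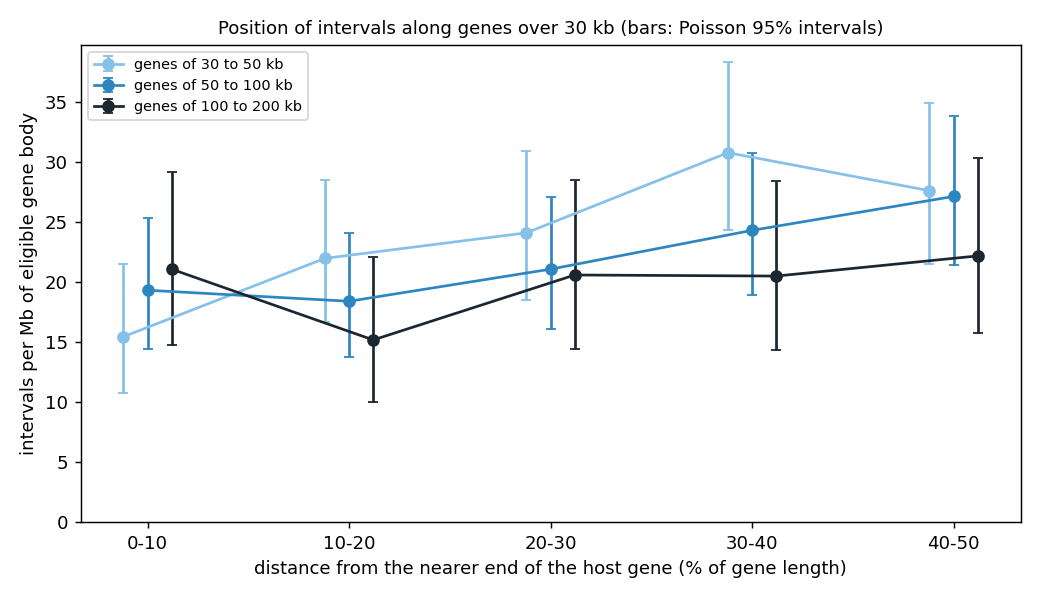
Members per Mb of eligible gene body against the distance from the nearer host end in % of gene length, for genes of 30 to 50 kb, 50 to 100 kb and 100 to 200 kb, with exact Poisson 95% intervals. The 2 shorter length classes climb from 15.44 and 19.3 per Mb at the ends to 27.6 and 27.1 per Mb in the middle, and the longest class stays between 15.2 and 22.2 per Mb.

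Neighbouring members of one host were typically some 10 kb apart. Over 421 gaps between consecutive midpoints in a host, the median was 11769 bp, with quartiles of 5942 and 22344 bp, and 80 gaps (19.0%, 15.5% to 23.02%) were under 5 kb. Another interval of the list lay within 10 kb of 342 members (42.6%, 39.2% to 46.0%), against 42.8% (38.4% to 47.2%) of the intervals in shorter genes and 52.6% (49.2% to 56.1%) of the intergenic ones. Genes not annotated as protein-coding contained the midpoints of 33 members (4.11%, 2.94% to 5.72%), while 2.85% of the territory lay in such genes.

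The annotated number of RefSeq transcripts had a median of 4 in the 382 hosts (quartiles 3 and 7) and of 4 in the 281 genes without a member (2 and 8). The 404 long genes with 4 or more transcripts carried 22.0 members per Mb (20.1 to 23.9), against 16.4 (14.5 to 18.5) in the 259 with fewer, but the 7 genes over 200 kb without a member are all among the 259. Of long genes known by a CG number alone, 70 of 124 hosted a member (56.5%, 47.7% to 64.9%), against 312 of 539 named genes (57.9%, 53.7% to 62.0%).

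The roles of the hosts were described with 8 lists of genes from general knowledge, on which 202 genes exceed 30 kb. Of these, 129 hosted a member (63.9%, 57.0% to 70.2%), against 57.6% of all genes over 30 kb. By density the listed genes carried 23.9 members per Mb (21.3 to 26.7), and the 461 long genes on no list carried 17.8 (16.2 to 19.4). Of the 7 genes over 200 kb without a member 6 are on no list, and among genes up to 200 kb the values were 25.4 (22.6 to 28.5) on a list and 20.7 (18.9 to 22.6) on none. The lists were put together with earlier results of these data known, and their counts are descriptions.

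Among homeodomain factors, the protein class to which Drgx itself belongs, 10 of 14 long genes hosted a member (71.4%, 45.4% to 88.3%). This interval includes the 57.6% of all long genes. Behind scro and hth came pdm3, a POU-domain gene with 2 members of up to 4.73, and Lim1, a LIM-domain gene with 1 member of 4.08. Ubx, Abd-B, nub and pb hosted none, the first 2 of them over lengths of 77.8 and 45.0 kb. List genes without a member are named here and below after their values were seen. Of 40 other transcription factor genes over 30 kb, 21 hosted a member (52.5%, 37.5% to 67.1%), which is near the 57.6% of all long genes. Their density was 27.96 members per Mb (21.5 to 35.8). This interval lies above the 19.7 over all long genes but includes the 22.3 of all long genes up to 200 kb. Of the 63 members, jing and E2f1 alone contributed 20. The members of this list had a median score of 3.24 (3.08 to 3.59), against 2.83 over all members. Besides Eip75B its highest scores stood in lola (4.82), a BTB zinc-finger gene of axon guidance, grh (4.71), a gene of epithelia and late neuroblasts, and pan (4.61), the TCF factor of Wnt signalling on chromosome 4.

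RNA-binding protein genes are few but very long, with a median of 99.1 kb over the 19 that exceed 30 kb. Members were found in 16 of them (84.2%, 62.4% to 94.5%), against 57.6% of all genes over 30 kb and 68.5% of those of 100 to 200 kb, which lies inside this interval. The density was 24.8 per Mb (18.4 to 32.8), an interval that includes the 19.7 over all long genes. After brat, the highest scores were 4.84 in bru3, 4.45 in heph, the polypyrimidine tract-binding protein gene, and 4.34 in msi, the musashi gene. bru1, bru2 and ps hosted none.

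Genes of adhesion and surface proteins were the list with most long genes. Of 62 over 30 kb, 46 hosted a member (74.2%, 62.1% to 83.4%), against 57.6% of all long genes. Their median length is 55.1 kb, and the 67.1% of all genes of 50 to 75 kb lies inside this interval. They held 102 members at 22.9 per Mb (18.7 to 27.9), an interval that includes the 19.7 over all long genes. The highest scores were 4.89 in ed, which encodes the immunoglobulin-domain protein Echinoid, 4.72 in CadN, 4.65 in Con, the leucine-rich-repeat protein Connectin, and 4.64 in side-VI, an immunoglobulin-domain gene. Of the axon guidance genes 11 of 13 hosted a member (84.6%, 57.8% to 95.7%), against 57.6% of all long genes. Their median length is 49.9 kb, and the 59.7% of all genes of 40 to 50 kb lies inside this interval. Their density was 28.4 per Mb (18.0 to 42.6), an interval that includes the 19.7 over all long genes. When only the 1203 highest-scoring intervals were kept, 6 of 13 hosted a member, against 38% of all long genes. After fra the axon guidance genes were led by sli (4.81), which encodes the midline repellent Slit, and by robo2 (4.34), which encodes a Slit receptor. NetB and robo3 hosted none, although each was overlapped by an interval that the rule placed elsewhere.

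Ion channel and transmitter receptor genes had a low share of hosts. Their median length is 53.3 kb, against 55.1 kb for the adhesion genes. Members were found in 12 of 28 (42.9%, 26.5% to 60.9%), at 13.8 per Mb (8.67 to 20.9). This share lies below the 57.6% of all long genes, but its interval includes that value. The 67.1% of all genes of 50 to 75 kb lies above the interval. By density, the interval includes the 19.7 per Mb over all long genes but not the 22.3 of long genes up to 200 kb. The longest gene of this list is Sh with 139 kb. These differences were not tested. The highest scores were 4.05 in nAChRalpha1, an acetylcholine receptor subunit gene, 3.88 in Octbeta2R, an octopamine receptor gene, 3.69 in eag, a potassium channel gene, and 3.68 in Trpm, a cation channel gene. Of 9 synaptic genes over 30 kb, 3 hosted a member (33.3%, 12.1% to 64.6%). They were Fife, an active zone gene (3.54), Sytbeta, a synaptotagmin gene (3.42), and CASK, a scaffold gene (2.26). brp, Rim, unc-13, Syn, dlg1 and Cadps hosted none. Both the 57.6% of all long genes and the 59.7% of genes of 40 to 50 kb lie inside this interval. The density was 11.3 per Mb (3.09 to 29.0), an interval that includes the 19.7 over all long genes.

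Of 17 long signalling genes 10 hosted a member (58.8%, 36.0% to 78.4%), close to the 57.6% of all long genes. Their density was 32.3 per Mb (21.3 to 47.0) from 27 members, against 19.7 over all long genes. Both the 22.3 of long genes up to 200 kb and the 24.2 of genes of 30 to 50 kb lie inside this interval. The highest scores were 4.73 in dlp, a glypican gene, 4.27 in InR, the insulin receptor gene with 5 members, 4.13 in mam, the Notch coactivator gene, and 4.13 in shn, a zinc-finger gene of Dpp signalling. When only the 1203 highest-scoring intervals were kept, 7 of 14 homeodomain genes, 13 of 19 RNA-binding protein genes, 31 of 62 adhesion genes, 17 of 40 other transcription factor genes, 8 of 28 channel and receptor genes, 8 of 17 signalling genes, 6 of 13 axon guidance genes and 2 of 9 synaptic genes hosted a member, against 38% of all long genes.

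**Figure D5:**
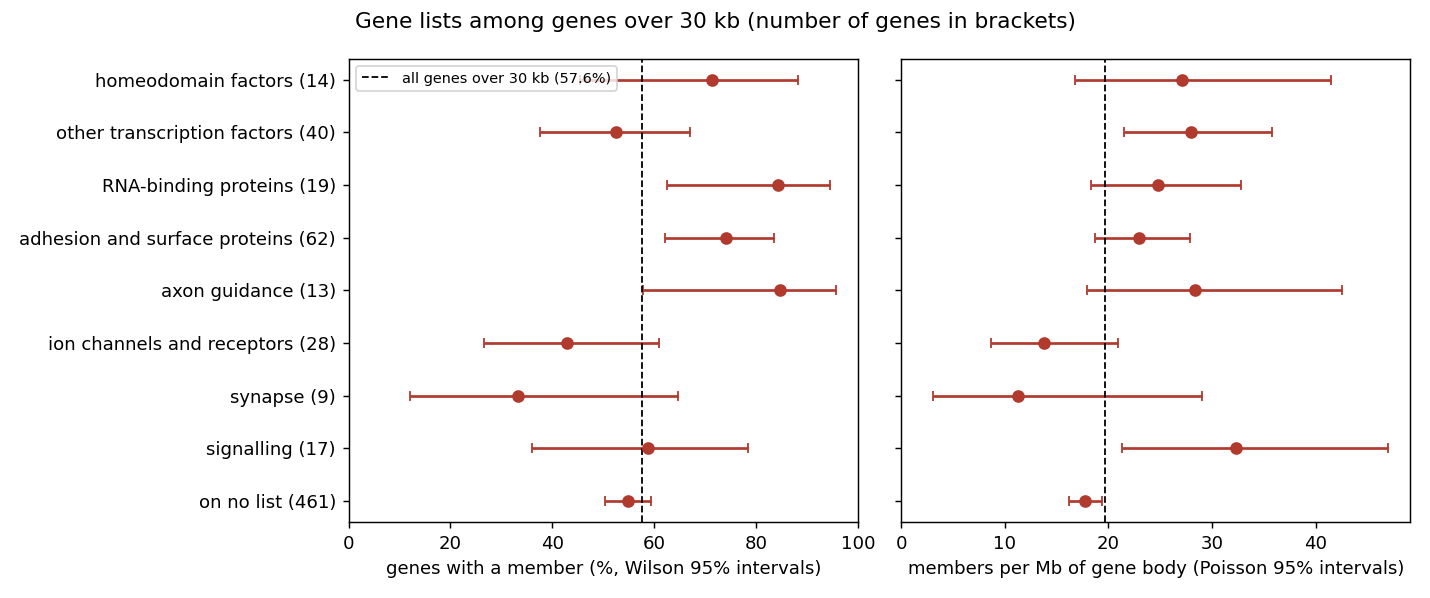
Share of genes over 30 kb that host a member (left, %, Wilson 95% intervals) and members per Mb of gene body (right, exact Poisson 95% intervals) for 8 gene lists and for genes on no list, with the number of genes in brackets. The dashed lines mark 57.6% and 19.7 per Mb over all genes over 30 kb and are not matched for gene length. In the left panel the intervals of the RNA-binding, axon guidance and adhesion lists lie wholly to the right of the line. Those of the other 5 lists cross it. In the right panel the intervals of other transcription factors and of signalling lie wholly to the right of the line. That of genes on no list lies wholly to its left, and the remaining lists cross it.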

How the data were processed

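The authors deposited 1 interval list for all samples, which gives per interval its position, the false discovery rate and a score. It has no header, and the scale of the deposited score, the caller, the filters and the pooling of replicates are not given in the sources used here. The build BDGP6 stands in the submitters' processing notes, and genes came from the RefSeq table of Release 6, which gives ends, biotype and transcripts per gene. Starts were turned to a count from 1. Every base of the 6 arms up to the end of the last annotated gene was given the class that a midpoint there would have. This gave the territory in Mb of each class. Shares carry Wilson 95% intervals, densities exact Poisson intervals and medians intervals from order statistics. They cover counting only, treat intervals as independent and do not replace replicates. Depth per sample is unknown here.

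Members and gene lists were chosen with earlier results of these data known. The genes named are hosts of the 10 highest scores, the 10 with most members, the 5 densest with 3 or more members, the 5 longest without a member, the 5 members farthest from a gene end, up to 4 per list, and Drgx; one of these is not reported here. Genes outside this rule are marked as named after their values were seen. Of 523 listed symbols, 517 were in the table. Sequences, strand and exons were not used. On simulated lists of single positions, only the split of long gene bodies from all other DNA and the ratio of their densities were checked. The other classes and their densities were not checked in this way. Python 3.11.15, numpy 2.4.6, pandas 2.3.3, scipy 1.17.1 and matplotlib 3.10.9 were used.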

Additional observations from a re-analysis of the deposited data

How the results depend on the processing

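Of 95 recomputed values, 77 stayed within the counting error of the reported one, or within 1.5 times of it for counts. A gene-end zone of 1000 bp or none, the shortest containing gene, the whole interval inside the host, joining intervals within 1 kb, and leaving out any single arm moved none of the values computed under them. The relative position moved under no alternative. With genes over 50 kb there were 500 members in 204 hosts, 66.4% of such genes hosted one, and the density was 17.7 per Mb. With genes over 20 kb the share was 49.5%. Keeping the 1203 highest-scoring intervals left 402 members in 252 hosts (38.01% of long genes), a median score of 3.565 and 9.86 per Mb, and 6 axon guidance genes with a member. Keeping the 1188 with a false discovery rate under the median left 398 members in 252 hosts (38.01%), a median score of 3.27 and 9.77 per Mb. These settings change the set of genes or keep fewer intervals, and the 1203 were selected on the score itself. What made each value move was not tested. After seeing the data, territory within the span of the list (21.9 per Mb) and without genes over 200 kb (22.3 per Mb) were added. The density with whole intervals inside was not run, nor position from the 5′ end, since strand was not used here. No paired analysis was possible because the list has no column per sample, and no replicate could be left out. Without depth per library, weak sites cannot be told apart from missing ones.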

Other observations

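InR and E2f1 are neighbours on 3R, with bodies 982 bp apart, and together hosted 11 members over 90.6 kb (21570248 to 21660871), or 1.21 per 10 kb. Of 17 pairs of hosts whose bodies lie under 5 kb apart, 3 held 6 or more members, and the other two held 6 each over 130 and 203 kb. The pair was picked after its values were seen, and no test was made. InR encodes the insulin receptor and E2f1 a factor of S phase entry.

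eIF4EHP, a translation factor gene of 45.9 kb on 3R, had 3 members that covered 34.9% of it, one of them 9883 bp wide at 24089929 to 24099811 with a score of 2.52. It was named after its values were seen.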
